A study of Drosophila melanogaster with 24 samples.

Results

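Embryos of Drosophila melanogaster expressing activated Ras were compared with GAL4 control embryos in a late window, from 7 to 8 h after egg lay (stage 11 mid-12 per the labels). The comparison rests on 6 of the 24 arrays of the study, 3 per group, chosen by their titles. Control embryos were the progeny of homozygous arm-GAL4 females and w1118 males, and Ras embryos those of the same females and homozygous UAS-Ras85D(V12) males. All groups therefore carried arm-GAL4, in which the armadillo promoter, active in most embryonic cells, drives the yeast transcription factor GAL4. GAL4 switches on transgenes behind UAS sites, here a permanently active form of Ras85D. Each sample was a pooled collection of about 500 whole embryos, and the series text describes 3 independent experiments per cross and window. Other groups are used below for comparison. These are control and Ras embryos collected earlier (frozen 5 h 45 min at the youngest and 6 h 45 min at the oldest), embryos with UAS-NotchICD, the nuclear intracellular part of Notch, in both windows, and late embryos with both transgenes.

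Ras is the membrane GTPase through which receptor tyrosine kinases (RTKs), such as the EGF and FGF receptors, pass signals to the MAP kinase cascade. The cascade inactivates the ETS repressor Yan, encoded by aop, and activates the ETS factor Pointed. Its targets include inhibitors that act back on the pathway. In the embryo the FGF receptor Heartless spreads the mesoderm and specifies muscle founder cells and heart cells, and Ras activity in clusters of mesodermal cells selects muscle and pericardial progenitors. The EGF receptor patterns ectoderm, muscle and tendon precursors.

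Expression was read as log2 values, in which 1 unit is a factor of 2, after the submitters' GCRMA processing. Array medians ranged from 4.04 to 4.18 over the 6 arrays, on which 5617 to 5677 probe sets had a value of 5 or more. Replicate 3 stood apart in both groups. The root mean square difference over genes was 0.292 log2 units between control replicates 1 and 2, against 0.462 and 0.428 with replicate 3. It was 0.357 between Ras replicates 1 and 2, against 0.442 and 0.41 with replicate 3. Probe sets named for Ras85D or armadillo were not found here. The transgene was therefore not analysed, nor could it serve to check the labels. Hml, a hemocyte marker, and the germline markers vas and pgc were below the expression filter, whereas named nerve cell, glial, salivary gland and amnioserosa markers were measured and none of them was called. The mesoderm markers twi and bap and the tracheal marker btl were called, as described below. In whole embryos, fewer cells of a type and less RNA per cell cannot be told apart.

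A small share of the transcripts measured differed between Ras and control embryos in the late window, with rises and falls in nearly equal number. The 2 groups had fathers of different stocks, so effects of the transgene and of the paternal stock cannot be told apart in this comparison. Of 5736 tested rows (1 probe set per gene), 124 (2.16%) were called at an adjusted p under 0.05, 63 higher (1.1%) and 61 lower (1.06%). The 3 Ras values lay wholly above or below the 3 control values in 117 of the 124, against 10.8% of all rows. Exceptions with a name were dnd, kn, mre11, cher, LysD and GstE3. The calls compare the same 6 arrays, so the lack of overlap is no separate support for them. Beyond 1 log2 unit, 20 rows were higher and 16 lower. The largest estimated rises were in CG31445, the muscle gene nau, the TNF receptor gene wgn, the tendon gene Lrt and the mesoderm gene twi. Or71a, an odorant receptor gene, CG7296 and Vrp1, an actin regulator of myoblast fusion, had the largest estimated falls. The sizes for CG31445 and Or71a are uncertain, since 1 group of each lay in the low range of the arrays. CG31445 and nau reached a value of 5 only in arrays with the Ras transgene. They therefore passed the expression filter only through groups where they are high.

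With the replicate number as a block, 281 rows were called (143 higher, 138 lower), and all 124 were among them. Without replicate 3 of both groups the count was 78, of which 64 were shared, and a fit on the 6 arrays alone, which has far fewer residual degrees of freedom, called 22. The main fit also pools the spread with groups whose replicates lay closer together, such as early controls (root mean square differences of 0.196 to 0.261). For genes that vary more in the late groups, its errors may be too small. After array median centring 57 rows were higher and 85 lower, and after quantile normalisation 60 and 84, so that 40.1% and 41.7% of the calls were higher against 50.8% in the values as deposited.

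The feedback and target genes of the RTK-Ras pathway were among the genes that rose. Of 13 listed genes 8 were tested, 5 rose and none fell, and their median difference was 0.73 log2 units against 0.02 over all rows. Over all rows 1.1% were called higher and 1.06% lower. The risers were aos, sty, edl, aop and oc. Expression of aos, the secreted inhibitor of the EGF receptor, was 5.44, 5.72 and 5.72 in control replicates 1 to 3 and 6.41, 6.65 and 7.26 in Ras replicates 1 to 3. Every Ras value exceeded every control value, and the rise was 1.15 ± 0.21 log2 units (2.21-fold, SE of the fit, n = 3 per group, limma adjusted p = 0.0028).

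For sty, which encodes the intracellular RTK inhibitor Sprouty, the controls measured 7.82, 7.35 and 7.62 and the Ras embryos 8.96, 8.58 and 8.49. The groups did not overlap, and sty rose by 1.08 ± 0.14 (adjusted p = 3.7e-05). The gene edl, whose protein binds Yan and Pointed, had 8.50, 8.66 and 8.65 in controls and 9.65, 9.59 and 9.45 with Ras, a rise of 0.96 ± 0.16. Replicates of edl lay close together within each group, with SDs of 0.09 and 0.10. The repressor gene aop was already abundant, at 11.60, 11.49 and 11.40, and reached 12.42, 12.20 and 12.22, a rise of 0.78 ± 0.10 (adjusted p = 7.6e-05).

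Expression of oc, the head homeobox gene orthodenticle, was 0.69 ± 0.16 higher with Ras (adjusted p = 0.023). Its call was lost without control replicate 1 or 2 or without Ras replicate 2 or 3 (adjusted p up to 0.13). The 3 members not called were Mkp3, a MAP kinase phosphatase gene, and the terminal gap genes tll and hkb, with differences of 0.51 ± 0.19, 0.28 ± 0.16 and 0.00 ± 0.13. With the replicate block Mkp3 was called too (adjusted p = 0.045). Another gene of RTK feedback, rau, which encodes a Ras-binding protein and was named by its size alone, rose from 6.56, 6.69 and 6.34 to 7.73, 7.80 and 8.05, by 1.33 ± 0.15 (adjusted p = 9.7e-06).

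**Figure D1:**
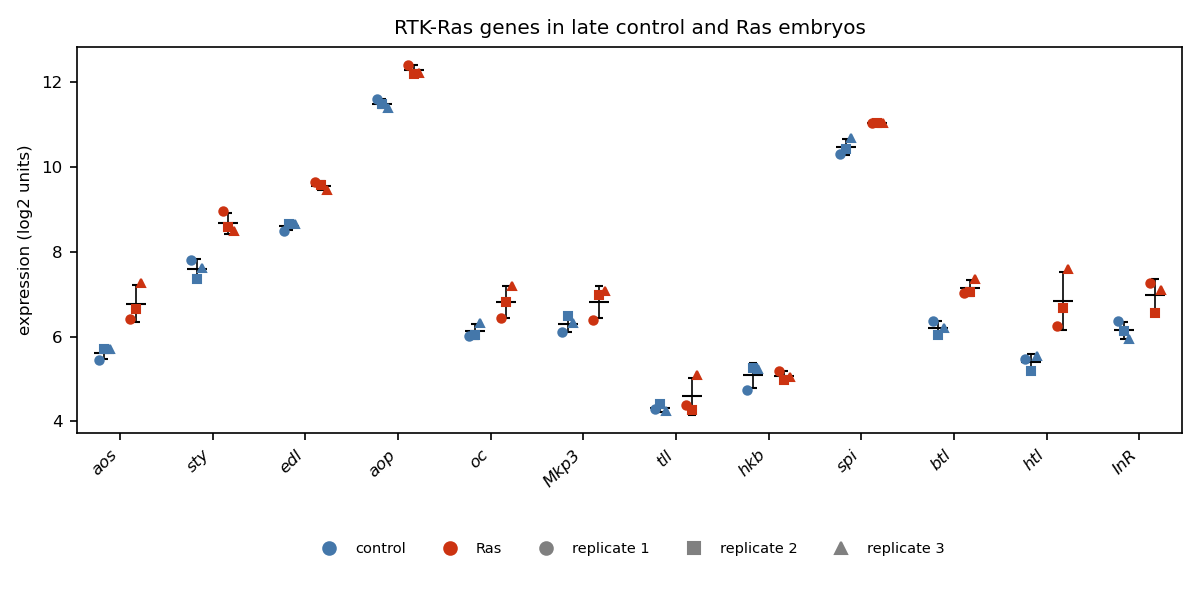
Expression in log2 units of 12 RTK-Ras genes in each late array, with controls in blue, Ras in red, marker shapes for replicates and black bars for mean ± SD (n = 3). The groups separate for aos, sty, edl and aop, whereas hkb has the same mean of 5.08 in both.

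Among ligand, receptor and cascade genes of RTK pathways, 4 of the 21 tested rose (1.1% of all rows did) and none fell (median difference 0.14). Among receptors, htl, the FGF receptor gene of the mesoderm, measured 5.47, 5.20 and 5.55 in controls and 6.25, 6.68 and 7.59 with Ras. All Ras values were higher, with Ras replicate 3 highest, and the rise was 1.43 ± 0.23 (adjusted p = 9.2e-04), or 1.13 without replicate 3 of both groups. On the 6 arrays alone the adjusted p of htl was 0.16. The tracheal FGF receptor gene btl rose by 0.94 ± 0.18 (adjusted p = 0.0054), from 6.38, 6.05 and 6.20 to 7.02, 7.06 and 7.37. Without replicate 3 of both groups its difference was 0.82 and no longer called (adjusted p = 0.095).

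The EGF receptor ligand gene spi was high in controls, at 10.30, 10.43 and 10.68, and stood at 11.05, 11.05 and 11.03 with Ras, a rise of 0.57 ± 0.11 (adjusted p = 0.0058). The insulin receptor gene InR was 0.83 ± 0.22 higher (adjusted p = 0.045). That call was lost after either rescaling and without control replicate 2 or 3 or Ras replicate 1 or 3 (adjusted p up to 0.21). Members not called included Egfr itself, at 8.92, 9.15 and 8.97 in controls and 8.77, 8.93 and 9.57 with Ras, and the adaptor gene dos, with 6.44, 6.89 and 6.48 against 7.07, 7.00 and 7.48. The dos values did not overlap, and dos was called with the replicate block only (adjusted p = 0.013 against 0.13).

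Most tested regulators of mesoderm and muscle identity rose. Of 23 listed genes 9 were tested, 7 rose (1.1% of all rows did) and none fell, with a median difference of 1.11. With a value of 6 or more required in 3 arrays, which left out nau, 8 were tested. Of those, 6 rose and the median was 0.9. The gene twi, the bHLH activator that specifies mesoderm, measured 4.60, 4.37 and 4.30 in controls and 5.82, 5.95 and 5.99 with Ras. All Ras values lay more than 1 unit above all controls, and twi rose by 1.50 ± 0.13 (2.82-fold, adjusted p = 2.7e-07). The MyoD relative nau rose by 1.77 ± 0.25 (adjusted p = 2.3e-04), from 3.75, 3.69 and 4.04 to 5.06, 5.38 and 6.33. Its control values lay in the low range of the arrays, where GCRMA draws values together, and Ras replicate 3 was the highest. The gene reached 5 only in Ras arrays, so it passed the expression filter only through groups where it is high. On the 6 arrays alone its adjusted p was 0.075.

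Him, which encodes an inhibitor of the muscle activator Mef2, had 6.69, 6.50 and 6.99 in controls and 7.52, 7.75 and 8.27 with Ras, a rise of 1.12 ± 0.17 (adjusted p = 5.6e-04). Expression of lmd, the zinc finger activator of fusion-competent myoblasts, rose by 0.65 ± 0.11, from 8.92, 8.90 and 9.03 to 9.47, 9.62 and 9.72. The Ras values of both genes lay above all controls.

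The muscle identity gene kn was called with overlapping groups, at 5.78, 6.20 and 6.39 against 6.38, 7.52 and 7.80 (1.11 ± 0.25, adjusted p = 0.016), and lost its call without control replicate 1 or Ras replicate 2 or 3 (adjusted p up to 0.095). The visceral mesoderm gene bap was 0.69 ± 0.18 higher (adjusted p = 0.04). Its call was lost after both rescalings and without any 1 array other than control replicate 1 (adjusted p up to 0.17). The 2 members not called were sna and zfh1, at 0.34 ± 0.17 and -0.14 ± 0.18. None of the 7 tested heart and dorsal mesoderm genes was called (median -0.14), although pnr was without Ras replicate 3 (-0.74, adjusted p = 0.036).

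Genes that muscles need to fuse and attach moved in both directions. Among 11 tested myoblast fusion genes 2 rose and 1 fell, against 1.1% and 1.06% of all rows. The scaffold gene rols, used by founder cells in fusion, rose from 5.76, 5.76 and 5.81 to 6.59, 6.68 and 7.33, by 1.09 ± 0.17 (adjusted p = 4.1e-04). Its other probe sets were below the filter, with differences of -0.02 and 0.48. The gene lmd was the second riser. Vrp1 fell by 1.59 ± 0.18 (3.00-fold lower, adjusted p = 1.7e-05), from 6.89, 7.25 and 7.57 to 5.78, 5.46 and 5.72. The fusion gene blow measured 8.06, 7.93 and 8.58 in controls and 7.08, 7.42 and 7.58 with Ras, a difference of -0.83 ± 0.23 that was not called (adjusted p = 0.07). It was called with the replicate block (adjusted p = 0.0019) and after both rescalings (0.038 and 0.039).

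Of 11 tendon and attachment genes 2 rose and 1 fell, against 1.1% and 1.06% of all rows. Lrt, a leucine-rich repeat gene of tendon cells, rose by 1.62 ± 0.22 (adjusted p = 1.3e-04), from 4.94, 5.39 and 6.02 to 7.30, 6.77 and 7.15. The kon gene, which muscles need to reach their tendon cells, rose by 1.05 ± 0.18, from 7.37, 7.69 and 7.63 to 8.39, 8.47 and 9.00. No Ras value of either gene reached down to the controls. The tubulin gene betaTub60D of differentiating muscle was 0.47 ± 0.12 lower (adjusted p = 0.031). Its call was lost without control replicate 2 or 3 or Ras replicate 2 (adjusted p up to 0.15), and its second probe set, at -0.48, was not called.

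Contractile protein genes varied more between replicates than between groups. Averaged over the 11 tested genes, the level was 7.46, 7.48 and 5.43 in control replicates 1 to 3 and 6.81, 7.18 and 5.73 in Ras replicates 1 to 3. Replicate 3 was thus lowest in both groups. The myosin light chain gene Mlc2 measured 9.97, 9.83 and 5.99 in controls and 9.28, 9.86 and 7.13 with Ras, and up, a troponin T gene, 7.14, 6.52 and 2.92 against 6.49, 6.28 and 3.38. Of the list, sls, which encodes the titin-like Sallimus, was called, at 0.65 ± 0.14 lower on the log2 scale as read by its brightest probe set.

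The values of sls were 5.15, 5.70 and 5.35 in controls and 4.72, 4.80 and 4.73 with Ras (adjusted p = 0.016). The call was lost without control replicate 2 or Ras replicate 1 (adjusted p up to 0.11), and 3 dimmer probe sets of sls, all below the filter, differed by -0.03 to -0.04. The list's median difference was -0.15 and turned on single arrays, from -0.94 without control replicate 3 to 0.03 without control replicate 1 or Ras replicate 3. It was -0.33 and -0.62 without Ras replicates 1 and 2, -0.01 without control replicate 2 and -0.56 without replicate 3 of both groups. In the last setting sls was not called and Prm, the paramyosin gene, was (-0.73 ± 0.11, adjusted p = 8.6e-04), as it was without control replicate 3 alone. The myosin chaperone gene unc-45, outside the list, fell by 1.27 ± 0.19 (adjusted p = 3.8e-04), from 7.25, 7.51 and 7.67 to 6.27, 6.16 and 6.17, with no low value in either replicate 3.

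**Figure D2:**
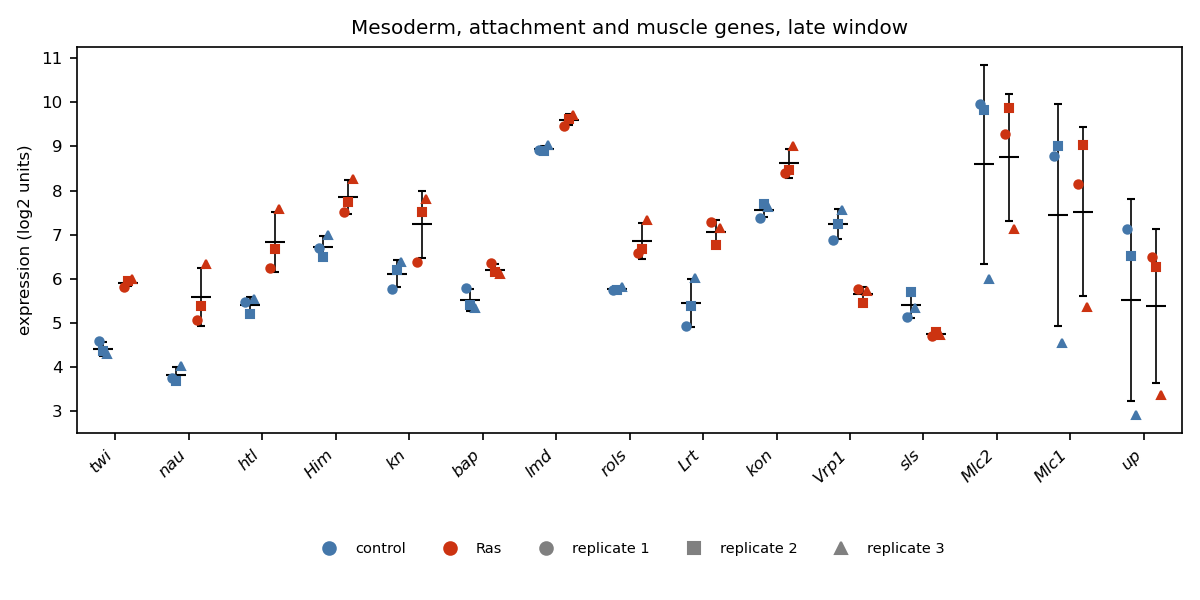
Expression in log2 units of mesoderm, attachment and muscle genes in each late array (blue control, red Ras, shapes for replicates, black bars mean ± SD, n = 3). The Ras values of twi, nau, Him, rols and Lrt lie above all controls and those of Vrp1 and sls below, while Mlc2, Mlc1 and up are far lower in replicate 3 of both groups.

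Genes of glycolysis and sugar metabolism were the list with the most falls. Of 19 tested, 4 fell (1.06% of all rows did) and none rose. The median difference was -0.24, against 0.02 over all rows. The phosphoglucomutase gene Pgm1 measured 5.63, 5.96 and 5.92 in controls and 4.46, 4.48 and 4.35 with Ras, a fall of 1.41 log2 units (-1.41 ± 0.16, adjusted p = 9.7e-06). The fructose bisphosphatase gene fbp had 5.92, 6.04 and 5.27 against 3.68, 4.82 and 4.43 (-1.43 ± 0.28, adjusted p = 0.005). The enolase gene Eno fell from 7.46, 7.69 and 7.14 to 6.46, 6.80 and 6.06 (-0.99 ± 0.18, adjusted p = 0.0024). In these genes the groups did not overlap.

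Tps1, the trehalose synthase gene, was 0.66 ± 0.15 lower on the log2 scale with Ras (-0.66, adjusted p = 0.016), but not without control replicate 3 or Ras replicate 2 or 3 (adjusted p up to 0.098). Gapdh1 differed by -0.50 (adjusted p = 0.091) and was called with the replicate block (adjusted p = 0.018) and without control replicate 3 or Ras replicate 2 (0.03 and 0.028). Mean levels of the list were 7.03, 7.17 and 7.06 in controls and 6.64, 6.85 and 6.75 with Ras, so that all Ras arrays were below all controls.

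The other large falls were in genes of several functions. Or71a showed the largest fall, from 4.94, 5.55 and 5.60 to 3.16, 3.11 and 3.17 (-2.22 ± 0.16, adjusted p = 4.0e-08). Its Ras values lay below the array medians, in the low range where values are drawn together and no detection call was used, so the size of the fall and its rank are uncertain. CG7296 fell by 1.78 ± 0.21 and gol, a RING finger gene of the mesoderm, by 1.46 ± 0.20, from 6.36, 6.77 and 6.73 to 4.96, 5.18 and 5.33. The SET and MYND domain gene SmydA-1 fell by 1.35 ± 0.17, from 7.23, 7.09 and 7.56 to 5.73, 5.84 and 6.27.

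CG13064 fell by 1.33 ± 0.12, and PheRS-m, a mitochondrial tRNA synthetase gene, by 1.15 ± 0.12, from 7.54, 7.84 and 8.07 to 6.48, 6.79 and 6.73. CG13064 passed the expression filter through late controls, where it is high. The falls in CG6415, the cuticle protein gene Cpr5C and bgm, an acyl-CoA synthetase gene, were smaller. CG6415 fell by 1.09 ± 0.16, Cpr5C by 1.05 ± 0.18 and bgm by 1.00 ± 0.16 log2 units. The remaining pair of the 15 largest, gas, which fell by 1.17 ± 0.27, and CG7966, which fell by 1.00 ± 0.23, lost the call without control replicate 2 or 3 or Ras replicate 1, and CG7966 also without Ras replicate 2 (adjusted p up to 0.13 and 0.12).

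**Figure D3:**
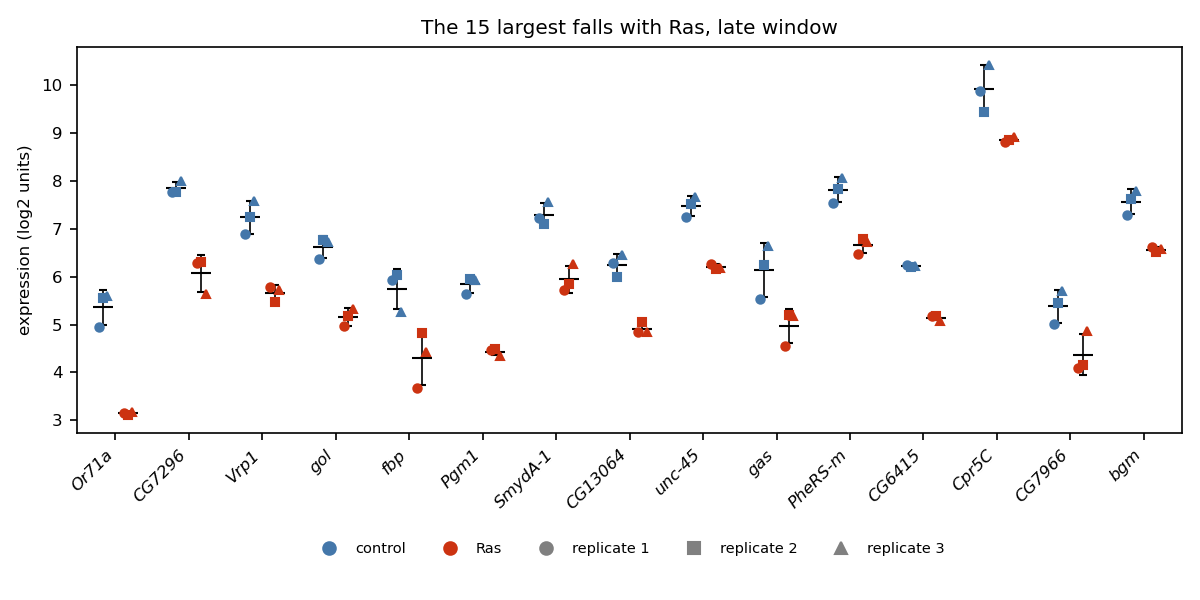
Expression in log2 units of the 15 genes with the largest falls in each late array (blue control, red Ras, shapes for replicates, black bars mean ± SD, n = 3). By the rule that chose them the groups do not overlap, and the Ras values of Or71a lie within 0.06 units of each other at 3.11 to 3.17.

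CG31445 showed the largest rise. It measured 3.83, 3.71 and 3.71 in controls, in the same low range, and 5.71, 6.50 and 7.01 with Ras, a rise of 2.66 ± 0.22 whose size is likewise uncertain (adjusted p = 2.7e-07). The TNF receptor gene wgn rose by 1.70 ± 0.17 (adjusted p = 2.7e-06), from 5.74, 5.52 and 5.91 to 7.42, 7.06 and 7.80, and was the 1 called gene of 8 tested in cell death and TNF signalling. Among the 15 largest rises, the Notch ligand gene Delta rose by 1.19 ± 0.14, from 7.13, 7.04 and 6.62 to 8.11, 8.09 and 8.16.

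The neurogenic membrane protein gene bib rose by 1.04 ± 0.24 (adjusted p = 0.019), but was not called without control or Ras replicate 3 (adjusted p up to 0.11). CG44325 rose by 1.15 ± 0.28 (adjusted p = 0.032), a call lost without control replicate 2 or 3 or Ras replicate 1 or 2 (adjusted p up to 0.18). It reached 5 only in late arrays with the Ras transgene, so it too passed the filter only through groups where it is high.

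Lists for the other tissues and pathways held few calls, and 1.1% of all rows were called higher and 1.06% lower. Of 14 tracheal genes 3 rose, namely btl, pio, a gene of the apical matrix (0.71 ± 0.11), and esg, a Snail-family gene (0.65 ± 0.14). Of 25 proneural and neuroblast genes 2 rose, esg and the proneural gene l(1)sc (0.82 ± 0.19), while SoxN (0.52) and mira (0.43) were called with the replicate block only (adjusted p = 0.021 and 0.028). The calls of l(1)sc (lost without control replicate 2 or 3 or Ras replicate 1) and esg (lost without control or Ras replicate 3) rested on single arrays, with adjusted p up to 0.13 and 0.054.

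Of 10 Enhancer of split complex genes, E(spl)m6-BFM alone was called (0.77 ± 0.20, adjusted p = 0.043), a call lost after median centring and without any 1 array other than control replicate 3 (adjusted p up to 0.16). With the replicate block E(spl)malpha-BFM (0.41) was called as well (adjusted p = 0.049). Delta was the 1 gene called among 10 Notch pathway components, and numb (0.37) was added with the replicate block (adjusted p = 0.045). The glial list held 1 call among 8 genes, htl.

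Of 10 segmentation genes the pair-rule repressor gene hry fell by 0.93 ± 0.15, from 8.51, 8.22 and 8.42 to 7.53, 7.46 and 7.36 (adjusted p = 9.6e-04). Among 13 ribosome biogenesis and growth genes the RNA polymerase I subunit gene Polr1E fell by 0.82 ± 0.09, from 8.40, 8.37 and 8.48 to 7.51, 7.69 and 7.59 (adjusted p = 9.7e-06). No gene was called in the lists of hemocyte and basement membrane (18 tested), cell cycle (13), amnioserosa (10), gut and endoderm (10), BMP pathway (10), salivary gland (7), neuronal differentiation (7), maternal and germline (6), epidermal (5), heat shock (3) or Hox genes (3), and their medians lay between -0.09 and 0.25. In the epidermal list mwh (-0.40) was called with the replicate block (adjusted p = 0.043).

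**Figure D4:**
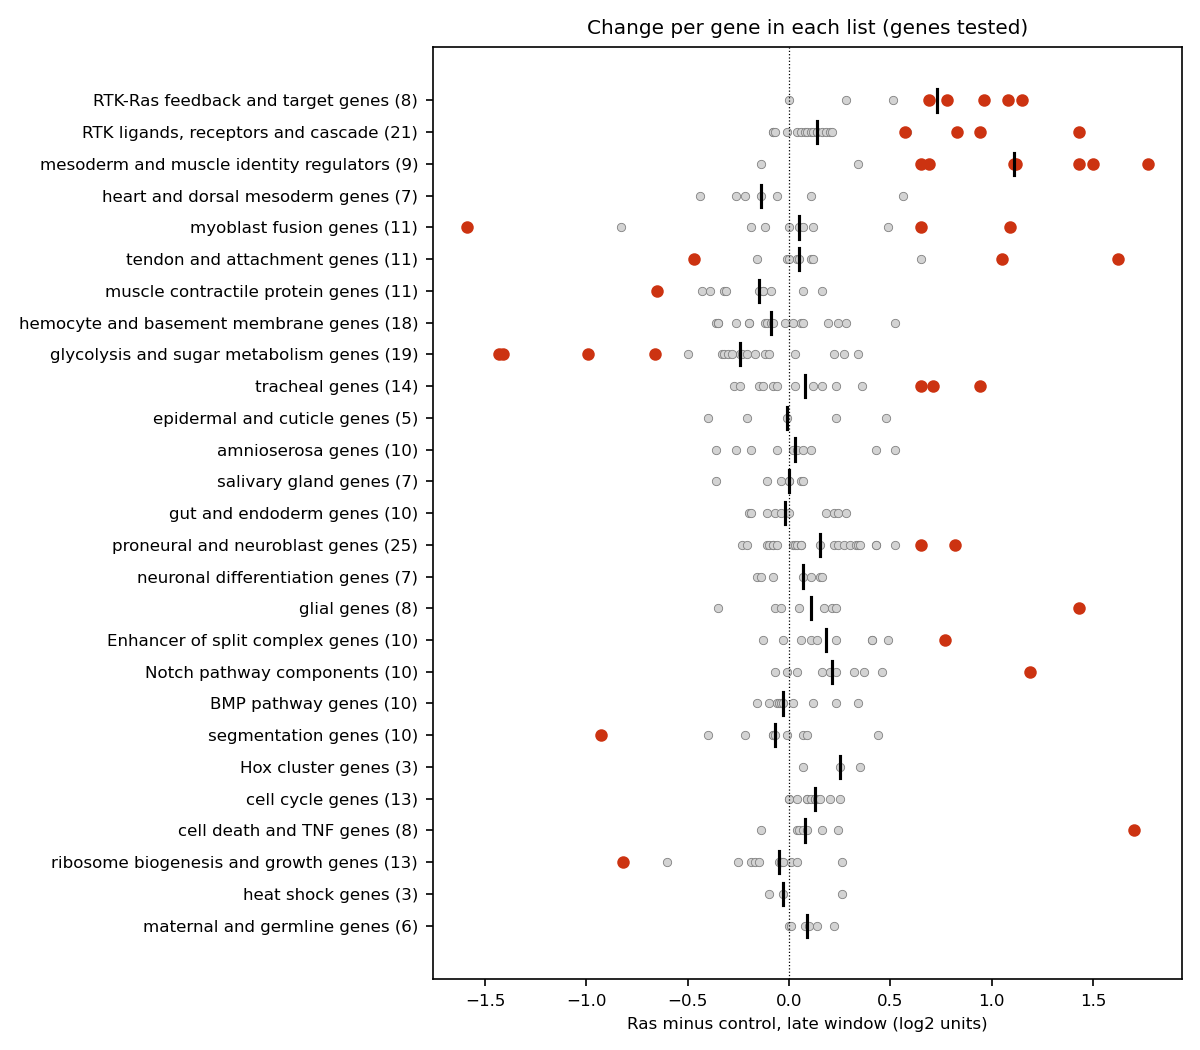
Ras minus control difference in log2 units for each tested gene of the lists with 3 or more tested genes, with the number tested in brackets. Red points are called genes, grey points are not, black bars are list medians and the dotted line is 0. The feedback and mesoderm identity lists have medians of 0.73 and 1.11, and the 4 red points of the sugar metabolism list lie below 0.

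The same genes were then read in other groups. The means of these groups come from other arrays than the 6 compared, but all 24 arrays entered the filter and the spread behind the late calls. In the early window, where 21 rows were called for Ras against control (0.366%), 58 of the 63 genes raised late had a value above 0 (47.5% of all rows did), with a median of 0.35 against -0.01 over all rows. Of these, 11 were called higher early (0.262% of all rows) and none was called lower. Of the 61 genes lowered late, 53 were below 0 early, with a median of -0.17, and 4 were called lower (0.105%). The early count fell to 13, 10, 12 and 12 without control replicate 1, control replicate 3, Ras replicate 1 and Ras replicate 2 of the early window.

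Genes called early and late included CG31445 (1.48 early), htl (1.08), wgn (1.01), Delta (0.87) and aop (0.58) among those higher, and Or71a (-1.36), Cpr5C (-0.85) and Polr1E (-0.43) among those lower. Or71a was low in both windows with Ras. By contrast, Vrp1 differed by -0.29 early and unc-45 by -0.06, and neither was called there.

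The difference between the late and the early effect was tested directly and was called in 4 rows (0.0697%). The effect of Ras on twi was 1.06 ± 0.18 larger late (0.44 early, 1.50 late, adjusted p = 0.014), as twi averaged 4.89 in early and 4.42 in late controls and 5.33 and 5.92 with Ras. PheRS-m (-0.01 early, -1.15 late) differed by -1.14 ± 0.17 (adjusted p = 0.0048). Its mean rose from 6.48 to 7.82 between the windows in controls, and was 6.47 and 6.67 with Ras. CG13064 (0.00 early, -1.33 late) differed by -1.34 ± 0.16 (adjusted p = 4.2e-04). Its control mean went from 3.96 to 6.24 while that of Ras embryos went from 3.97 to 4.91. These early means lay in the low range of the arrays, where a fall could not show. For Uhg1 the early effect was the larger, at -2.38 against -0.60 late. The gene reached 5 only in early control arrays, so it passed the expression filter only through the group where it is high. Its late means, 4.39 in controls and 3.79 with Ras, lay in or near the low range, which bounds the late effect. Leaving out 1 array gave 2 to 9 such calls, with 9 without control replicate 1 and 2 without Ras replicate 2 of the late window. The call of twi was lost without 1 of 6 arrays (control replicate 1 or Ras replicate 3 early, or control or Ras replicate 2 or 3 late, adjusted p up to 0.073), and that of Uhg1 without late Ras replicate 2 (0.054).

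When Ras was added to embryos with activated Notch, 105 rows were called late (1.83%), 44 higher (0.767%) and 61 lower (1.06%). Of the 63 genes raised in the absence of Notch 58 were above 0 in that background (56.9% of all rows were), 25 were called higher and none lower, and the median was 0.49. Of the 61 lowered genes 55 were below 0, 24 were called lower and none higher, and the median was -0.42, against 0.03 over all rows. Without Notch replicate 2 or 3 or the third replicate of both transgenes, the count of 105 was 66, 59 and 68.

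Mesoderm genes also rose when Ras was added to Notch embryos, by 1.44 ± 0.13 for twi, 0.99 ± 0.23 for htl and 0.76 ± 0.17 for Him, each called. The value of nau with Notch was 0.16 ± 0.25. Its means there, 3.36 with Notch and 3.52 with both transgenes, lay in the low range of the arrays. Its Ras effect with Notch minus that without was -1.61 ± 0.36 and not called (limma adjusted p = 0.09). Falls of gol (-1.83), Pgm1 (-1.19), SmydA-1 (-1.15), Vrp1 (-1.14) and unc-45 (-0.97) were also called with Notch. Of the sugar metabolism list only Pgm1 and Eno (-0.80) were called with Notch. There fbp differed by 0.00 and Tps1 by -0.11, and the list's median was -0.01. No member of that list was called early.

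The effect of Ras differed between embryos with and without Notch in 13 rows (0.227%). CG31445 rose by 4.91 ± 0.22 with Notch and by 2.66 without, a difference of 2.25 ± 0.32 (adjusted p = 0.001). Or71a differed by -0.24 with Notch and -2.22 without, and CG13064 by -0.02 and -1.33, so that the falls of both were called without Notch only, and the tests of these differences gave adjusted p = 1.2e-04 and 1.8e-04. CG13064 averaged 4.15 in late Notch embryos, in the low range, where a fall could not show. The bgm gene fell by 1.00 without Notch and differed by 0.18 with it (adjusted p = 0.022). Delta rose by 1.19 without Notch and differed by 0.20 with it (adjusted p = 0.026). The largest differences in the other direction were in Dgat2 (-1.81), CG13315 (-1.65), grn (-1.28), Su(Tpl) (-1.22) and CG3036 (-1.06), which fell with Ras when Notch was present. Of these 5, CG13315 alone was also called without Notch (-0.96 ± 0.22), though not without control replicate 1 or 2 or Ras replicate 1 or 3 (adjusted p up to 0.095). Dgat2 reached 5 only in arrays with Notch alone, so it passed the expression filter only through groups where it is high. Its late means without Notch, 3.75 in controls and 3.60 with Ras, lay in the low range, where a fall could not show. Without the third replicate of late controls or of embryos with both transgenes, the count of 13 was 7. Leaving out single arrays ended the calls of grn (9 of 12 arrays, adjusted p up to 0.091), Delta (7 arrays, up to 0.11), bgm (6 arrays, up to 0.1) and CG13315 (3 arrays, up to 0.077), including control replicate 3 and the third replicate of both transgenes in each case.

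Most genes lowered by Ras were genes that rose between the windows in embryos without the Ras transgene. In Notch embryos, whose means share no array with the late Ras and control means, 43 of the 61 lowered genes rose from the early to the late window (18.4% of all rows did) and 1 fell (9.99%). Of the 61, 56 had a value above 0, against 58.6% of all rows, and their median was 0.79 against 0.07. Between windows gol rose by 2.57, unc-45 by 2.16, Cpr5C by 1.87, Vrp1 by 1.77, CG7296 by 1.74 and SmydA-1 by 1.60 log2 units in those embryos, and Pgm1 and Eno by 1.19 and 1.24.

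Raised genes were divided in the same arrays. Of the 63, 11 rose and 16 fell between windows in Notch embryos, against 18.4% and 9.99% of all rows. Their median was 0.00, against 0.07 over all rows. The mesoderm genes twi, nau, htl and Him differed by -0.13, 0.03, -0.23 and 0.22, with none called, while lmd and kon rose by 0.88 and 1.04. After median centring, 57 of 85 lowered genes rose between windows in Notch embryos, and after quantile normalisation 55 of 84, against 14.1% and 14.7% of all rows. The part of embryo age in the lower levels was not tested.

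**Figure D5:**
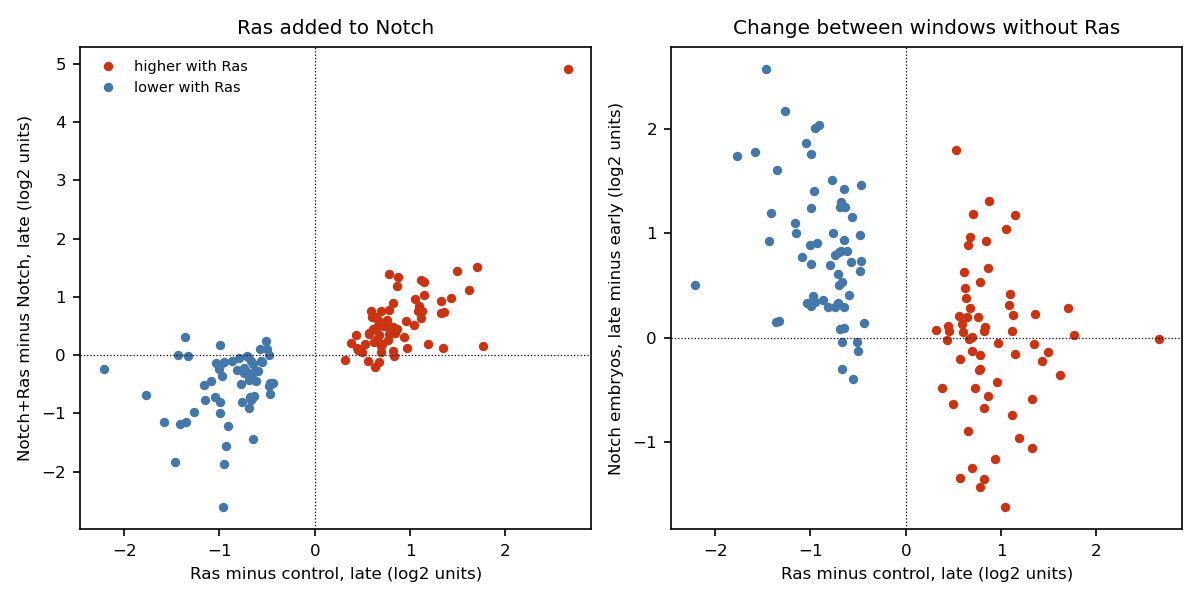
Each point is 1 of the 124 rows called late, red if higher and blue if lower with Ras, with its late Ras minus control difference in log2 units on the horizontal axis. The vertical axes give, left, the effect of adding Ras to Notch embryos and, right, the late minus early difference in Notch embryos, where 56 of the 61 blue points lie above 0.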

How the data were processed

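The values are the log2 levels deposited by the authors, 1 per probe set and array (Affymetrix DrosGenome1, biotin-labelled cRNA). The submitters' processing notes name GCRMA and limma, with versions not given in the sources used here. Of 14010 probe sets, 44 controls were left out. Symbols came from the platform annotation, updated through RefSeq (12443 probe sets with 1 symbol, 327 with several, 1196 with none). No detection calls were used. Rows needed a value of 5 or more in at least 3 of 24 arrays, with 1 probe set (highest mean) per gene.

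The 8 group means came from a limma 3.58.1 fit (R 4.3.3, lmFit, eBayes, 16 residual and 4.09 prior degrees of freedom). Benjamini-Hochberg adjustment was made per comparison. Errors are standard errors of this fit, with 1 spread per gene over all groups. Only 3 arrays per group limit the precision. Named were the 15 largest rises and falls among called, non-overlapping genes, at most 4 called genes a list (or its 2 highest), and the 5 largest differences per direction; oc, kn, bap, blow, dos, Gapdh1, Mkp3, SoxN, mira, numb, mwh, E(spl)malpha-BFM, Prm, pnr, Egfr, Mlc2, up and the genes under other observations were named after their values were seen. Members and lists were chosen with earlier results of these data known.

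Labels number replicates 1 to 3, and the series text describes collections in parallel sets. Deviations from the group mean correlated at 0.633, 0.265 and 0.516 between control and Ras arrays of the same number. The numbers were therefore taken as pairs in the replicate block, which is an alternative. The main fit, behind the 124 calls and the errors given, did not use the pairing. Alternatives were rescaling, the replicate block, other filters, fewer arrays and leaving out arrays.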

Additional observations from a re-analysis of the deposited data

Results flagged for a closer look

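The effect of Ras differed between groups in 17 rows by a test of the difference itself (limma, adjusted p under 0.05). Of these, 16 have a single gene symbol and are given here. Between windows, late minus early, the difference was 1.06 log2 units for twi, 1.78 for Uhg1, -1.34 for CG13064 and -1.14 for PheRS-m. Uhg1, a host gene of small nucleolar RNAs, averaged 6.36 in early and 4.39 in late controls, and 3.97 and 3.79 with Ras. Its early mean in Notch embryos was 3.96, so the early controls stood apart from the other early groups. No cause was tested.

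Between embryos with and without Notch, the late Ras effect differed by 2.25 for CG31445, 1.97 for Or71a, 1.32 for CG13064 and 1.17 for bgm. It differed by -1.81 for Dgat2, -1.65 for CG13315, -1.28 for grn, -1.22 for Su(Tpl), -1.06 for CG3036, -0.96 for CG17124 and -0.91 for gcm, the glial and hemocyte determinant. For Delta the effect decreased by 1.00 with Notch. The calls of CG17124 and gcm were lost without any 1 of 7 and 8 of the 12 arrays (adjusted p up to 0.11 and 0.16). CG13064 averaged 6.24 in late controls, 4.91 in late Ras, 4.15 in late Notch embryos and 4.14 with both transgenes, and the last 2 values lie in the low range of the arrays. Dgat2 averaged 5.79 in late Notch embryos, against 3.75 in controls, 3.60 with Ras and 3.83 with both. It reached 5 only in arrays with Notch alone, and its means in the other late groups lie in the low range.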

How the results depend on the processing

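For Ras against control in the late window (124 rows called), the count was 281 with the replicate block, 75 from late arrays only, 22 from the 6 arrays only and 78 to 122 on leaving out 1 array or, as an alternative chosen after seeing the data, replicate 3 of both groups. It was 142 and 144 after rescaling, 156 without a filter, 98 with a stricter one, 126 with every probe set and 123 with a trended robust prior. Of 56 named calls, 18 held under every alternative run, 38 were lost on the 6 arrays alone, 19 on leaving out 1 array and 0 with the block, and no named gene reversed. The block changed no other named call than those given in the report. The early comparison (21) gave 44 with the block, 11 on its own arrays, 13 with the stricter filter and 10 to 16 with 1 array left out. The difference between windows (4) gave 7 after median centring, 18 with the replicate block, 2 on its own arrays, 15 without a filter, 2 with the stricter filter and 2 to 9 with 1 array left out. Ras added to Notch (105) gave 211 with the block, 34 on its own arrays, 55 from late arrays and 59 to 116. The difference between Notch backgrounds (13) gave 28 with the block, 4 on its own arrays, 4 from late arrays, 22 without a filter and 7 to 17. Fits with fewer arrays have fewer residual degrees of freedom. With 1 array left out, the spread was still pooled over groups. Dim probe sets limit what could be called below the filter.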

Other observations

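Some called genes outside the lists were picked after their values were seen. The carnitine transferase gene whd, needed to carry fatty acids into mitochondria, measured 8.57, 8.51 and 8.54 in controls and 7.76, 7.96 and 7.77 with Ras (-0.71 ± 0.16, limma adjusted p = 0.021). The fatty acid binding protein gene fabp was at 7.84, 8.06 and 7.92 against 7.49, 7.65 and 7.25 (-0.48 ± 0.11), and hll, an acyl-CoA synthetase gene, at 9.42, 9.38 and 9.56 against 8.91, 8.66 and 8.77 (-0.67 ± 0.13). The lipase gene bmm was higher, at 7.40, 7.45 and 7.34 against 7.84, 7.99 and 8.15 (0.60 ± 0.13). The groups did not overlap in these genes. Leaving out 1 array ended the call of whd (adjusted p up to 0.077; any array other than Ras replicate 2), fabp (0.11; control replicate 2 or 3 or Ras replicate 3) and bmm (0.064; control or Ras replicate 3), but not of hll. No list of lipid genes was examined.

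Among genes of the extracellular matrix, the heparan sulfate sulfatase gene Sulf1 rose from 7.19, 7.36 and 7.43 to 8.14, 8.00 and 8.12 (0.76 ± 0.09, adjusted p = 2.4e-05) and kept its call without each array in turn. The nidogen gene Ndg was 0.59 ± 0.13 higher (adjusted p = 0.019), a call lost without control replicate 1 or 3 or Ras replicate 1 or 3 (adjusted p up to 0.092).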
